A study of Mus musculus with 2 samples.

Results

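The 51 genes described here encode the secreted and membrane-bound metalloproteases that cut the extracellular matrix, their relatives and their inhibitors. They are the genes whose symbols begin with Mmp and a digit, Adamts (Adamtsl included) or Timp and a digit, out of 23365 genes in the table. The set holds 23 Mmp, 19 Adamts, 5 Adamtsl and 4 Timp genes. Its members were taken by symbol, with earlier results of these data known. Matrix metalloproteases (MMPs) are zinc enzymes made as inactive precursors. Together they can cut most proteins of the matrix, and many growth factors and receptors besides. The ADAMTS enzymes, which carry thrombospondin repeats, process procollagens, proteoglycans and microfibril proteins. ADAMTS-like proteins keep the repeats but lack the protease domain, and TIMPs (tissue inhibitors of metalloproteases) bind and block the active site of these enzymes. Fibroblasts are a main source of all 4 families in connective tissue.

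The cells were mouse embryonic fibroblasts, mesenchymal cells grown from embryos, of 2 genotypes. In the knock-out cells, TET1 and TET2, enzymes that oxidize 5-methylcytosine in DNA, had been knocked out, and the other cells were wild type. Each genotype had 1 RNA sequencing library, so no value has a replicate or an error and no test between genotypes was possible. The labels used here give no strain, embryo age, passage or kind of allele. The authors' deposited table names its conditions only A and B, which match neither sample's label. The level in each condition was therefore left unused, and the ratios are not tied to the knock-out or to the wild type. Each gene is given by its mean normalized count over both conditions and by its ratio of condition B over condition A. The p-values of the authors' deposited table compare these 2 libraries, not the genotypes. Summed over all genes, the mean normalized count of the authors' deposited table was 58127871, and per-library depth was not analysed here.

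Genes whose mean normalized count reaches 50 are read by size, meaning a log2 ratio of 1 or more either way, which is a 2-fold difference. Of 12401 such genes, 17.9% met this rule, 8.31% higher and 9.6% lower in condition B. An adjusted p under 0.1 is reached by 2.29% of the 17339 genes that have a p-value, and a raw p under 0.05 by 6.28%. The cut-offs were set here. Tet1 was 3.54-fold and Tet2 1.67-fold lower in condition B per the authors' deposited table. The adjusted p of Tet1 there was 0.851, and neither gene had one under 0.1. This leaves unsettled which letter stands for the knock-out.

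Most detected metalloprotease and inhibitor genes lay higher in condition B. Of the 51 genes, 6 were at 0 in both conditions, 15 lay above 0 but below the minimum mean, and 30 reached it. Among these 30, 23 had a ratio above 1 (76.7%, beside 47.2% over all genes at the minimum mean) and 7 a ratio below 1. By size, 9 were higher in condition B (30%) and 2 were lower (6.67%), beside 8.31% and 9.6% over all genes. Their median log2 ratio was 0.59 with quartiles of 0.08 and 1.10, and over all genes with a mean of 50 or more it was -0.04 with quartiles of -0.39 and 0.30. An adjusted p under 0.1 was reached by 2 of the 45 members that have one (4.44%), Adamts9 and Timp3. A raw p under 0.05 was reached by 6 of the 45 (13.3%), of which 5 were higher in condition B. The minimum is set on the mean of both conditions, so a gene can reach it through the condition where it is higher. Of the 9 higher by size, Mmp9 and Mmp3 had means of only 101 and 106. A minimum mean of 200 gave 7 higher and 2 lower, beside 695 and 922 over all genes. These counts describe the 2 libraries and carry no test.

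**Figure D1:**
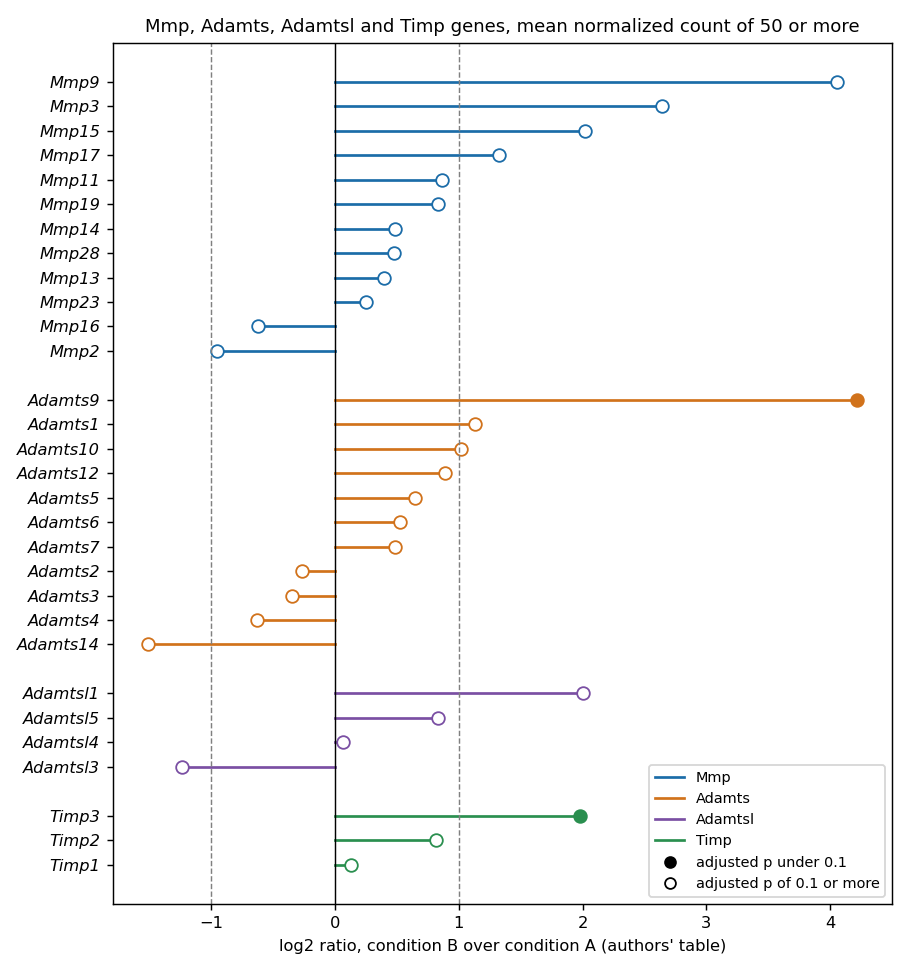
Log2 ratio of condition B over condition A for the 30 genes that reach a mean normalized count of 50, by family, from the authors' deposited table, with 1 library per condition and no error bars. Dashed lines mark a log2 ratio of 1 in size. Filled points (Adamts9, Timp3) have an adjusted p under 0.1, and 23 of the 30 points lie to the right of 0.

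Levels can be compared between genes only per transcript length, so each mean was divided by the length of the longest coding transcript. On this scale, which pools both conditions, the 3 inhibitors Timp2, Timp3 and Timp1 stood above every protease of the set. Timp3 was 3.95-fold higher and Mmp2 1.93-fold lower in condition B per the authors' deposited table. The order within a single condition can therefore differ from the pooled order. Timp2 had a mean of 28263 per kilobase, Timp3 17163 and Timp1 16666, ranks 51, 141 and 147 among 11695 genes that reach a mean of 50 and have a length. The proteases closest to them were Mmp2 (11064 per kilobase, rank 263) and Mmp14 (10889 per kilobase, rank 270), followed by Adamts1 at 7252 per kilobase (rank 480). Summed over its genes, the Timp family made up 58.3% of the level per kilobase of the 51 genes, the Mmp family 26.9%, Adamts 12.0% and Adamtsl 2.83%. Without replicates this order was not tested. Mmp2 stood at 1.02 times Mmp14, and Timp3 at 1.03 times Timp1. With the median in place of the longest coding transcript, Mmp2 stood above Timp1, with a level per kilobase of 18153 against 17152, and Timp3 stood at 1.86 times Timp1. The order of Timp1 and Mmp2, and the distance of Timp3 from Timp1, thus depend on the transcript length used.

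**Figure D2:**
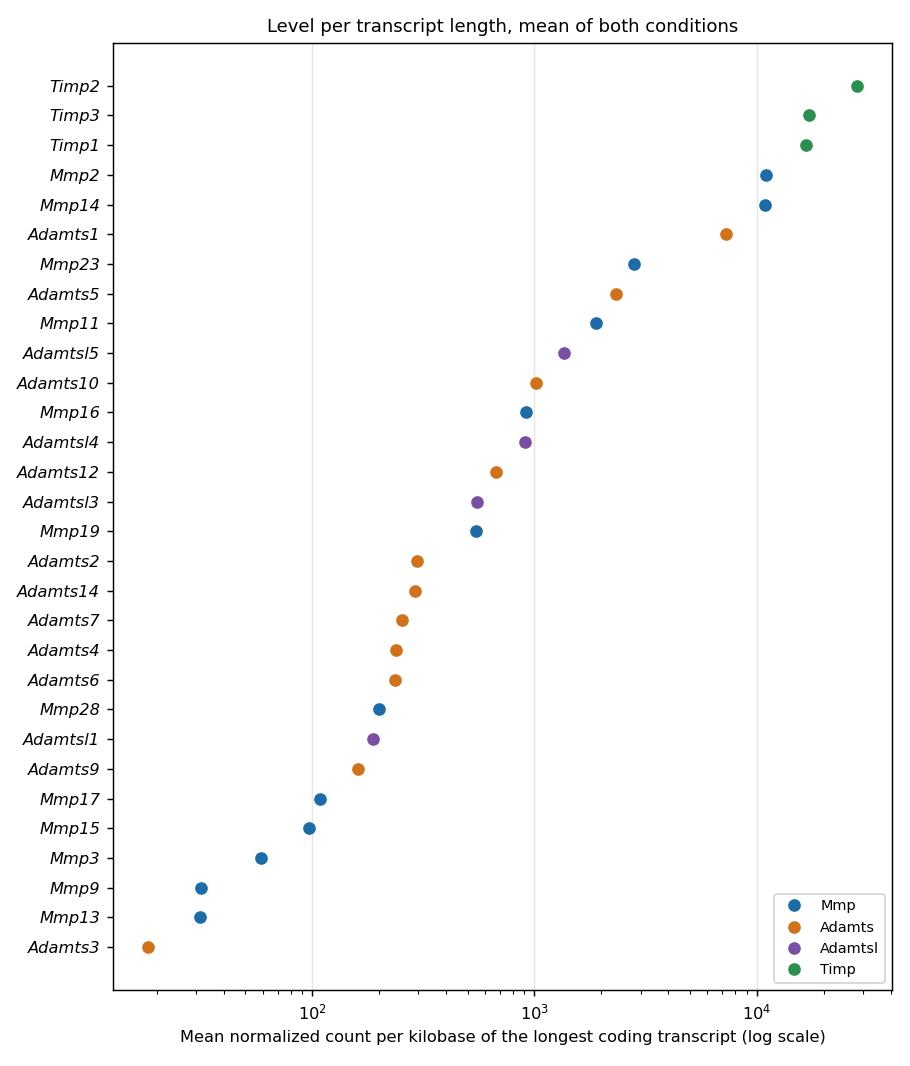
Mean normalized count of both conditions per kilobase of the longest coding transcript (log scale) for the 30 genes at the minimum mean, coloured by family. The 3 Timp genes lie at the top, from 16666 to 28263 per kilobase, and Adamts3 at the bottom with 18.3.

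Among the inhibitors, Timp3 differed most between the conditions. Timp3, which unlike its relatives stays bound to the matrix and also blocks several ADAM and ADAMTS enzymes, was 3.95-fold higher in condition B per the authors' deposited table, where its mean normalized count was 81046 and its adjusted p 0.0784. Timp2, which helps Mmp14 to activate the Mmp2 precursor as well as inhibiting the mature enzymes, was 1.76-fold higher per the authors' deposited table, at a mean of 104826 and an adjusted p of 1. Timp1, a secreted inhibitor, had a fold of 1.09 per the authors' deposited table, at a mean of 14716. All 3 ratios thus lay above 1, with a median log2 ratio of 0.81, and 1 of the 3 met the size rule. Timp4 had a mean of 7.38 per the authors' deposited table, below the minimum.

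The value of Timp3 lies at the edge of what the authors' test called. In the authors' deposited table, the smallest log2 ratio in size among the 9 genes called at a mean of at least 20000 was 1.98, and that of Timp3 was also 1.98. Below a mean of 5000 the smallest called ratio was larger: 2.03 between 1000 and 5000, 2.32 between 200 and 1000, and 4.003 between 50 and 200. Mmp9, with a log2 ratio of 4.06 per the authors' deposited table, lies in the lowest of these ranges and was not called.

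**Figure D3:**
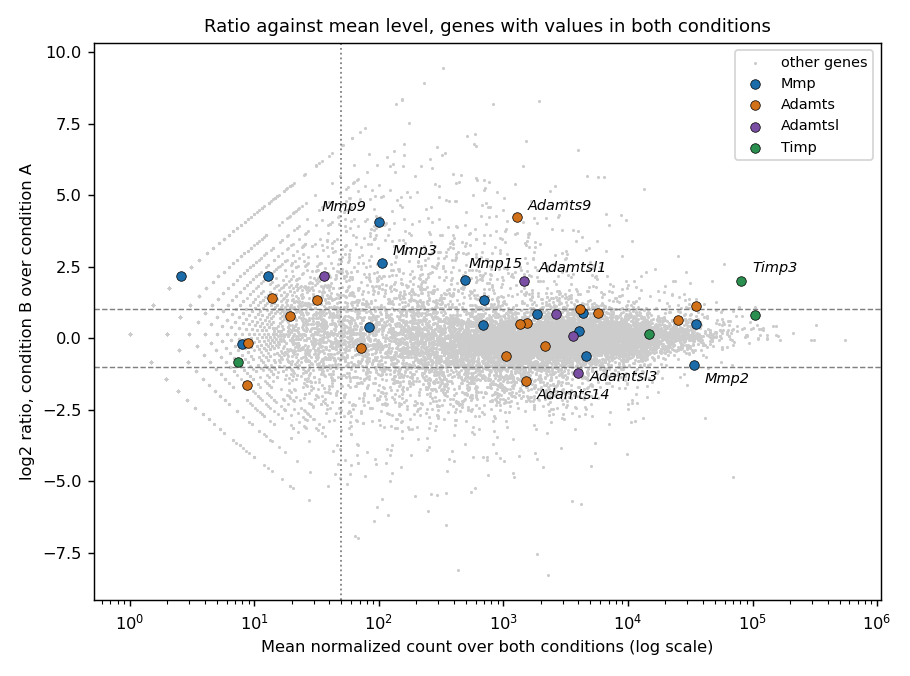
Log2 ratio of condition B over condition A against the mean normalized count over both conditions (log scale), for genes with values in both conditions (grey) and the members (coloured by family). The dotted line marks the minimum mean of 50 and the dashed lines a log2 ratio of 1 in size; Adamts9 at 4.22 and Mmp9 at 4.06 are the highest members, and Adamts14 at -1.51 is the lowest at the minimum mean.

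The 2 gelatinases, which cut denatured collagen and the collagen of basement membranes, had ratios in opposite directions. Mmp9 was 16.7-fold higher in condition B per the authors' deposited table, at a mean of 101, a raw p of 0.0117 and an adjusted p of 0.310. Mmp2 was 1.93-fold lower per the authors' deposited table, at a mean of 34055 and an adjusted p of 1, so it fell just short of the size rule. Over both conditions together, the level per kilobase of Mmp2 was 349 times that of Mmp9. This value pools conditions between which the 2 genes had opposite ratios, so it describes neither condition alone. The large ratio of Mmp9 belongs to a gene expressed at a low level. Macrophages and neutrophils are known for high Mmp9, and their markers Ptprc and Lyz2 had means of 3.53 and 94.7 per the authors' deposited table. Their part in the Mmp9 ratio was not tested.

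The membrane-type enzymes are anchored in the plasma membrane and act at the cell surface. Mmp15 was 4.05-fold higher in condition B per the authors' deposited table, at a mean of 496, a raw p of 0.0176 and an adjusted p of 0.401. Mmp17, held by a lipid (GPI) anchor, was 2.50-fold higher per the authors' deposited table, at a mean of 696 and an adjusted p of 1. These 2 met the size rule and Mmp14 and Mmp16 did not. Mmp14, the main activator of the Mmp2 precursor and a collagenase in its own right, had a fold of 1.40 per the authors' deposited table, at a mean of 35257. Mmp16 was 1.54-fold lower per the authors' deposited table, at a mean of 4589. Mmp24 and Mmp25 stayed below the minimum, with means of 7.96 and 12.9 per the authors' deposited table. In the authors' deposited table Mmp25 stood at a log2 ratio of 2.15, with an adjusted p of 1.

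The secreted enzymes outside the gelatinases were mostly low or absent. Mmp3 (stromelysin 1), which cuts proteoglycans and activates other MMPs, was 6.24-fold higher in condition B per the authors' deposited table, at a mean of 106 and an adjusted p of 0.968. The collagenase Mmp13, known from cartilage and bone, had a fold of 1.32 per the authors' deposited table, at a mean of 83.5. Mmp10 and Mmp1b are listed at 0 in condition A per the authors' deposited table, with means of 5.80 and 3.69, so no fold is given. Mmp12, the macrophage elastase, had a log2 ratio of 2.15 per the authors' deposited table at a mean of 2.58. Mmp1a, Mmp7, Mmp8, Mmp20, Mmp21 and Mmp27 are listed at 0 in both conditions per the authors' deposited table. Among them are the neutrophil collagenase Mmp8, the epithelial matrilysin Mmp7 and the enamel protease Mmp20. Mmp1a and Mmp1b are close copies of each other, and Mmp12 and Mmp1b share 157 exon bases on opposite strands, so values of these genes are uncertain.

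Other secreted or anchored MMPs were expressed well above this and differed less. Mmp11 (stromelysin 3), which is activated inside the cell by furin, was 1.82-fold higher in condition B per the authors' deposited table, at a mean of 4328. Mmp19 was 1.78-fold higher per the authors' deposited table, at a mean of 1853. None of this group met the size rule. Mmp28 (epilysin) had a fold of 1.39 at a mean of 688 per the authors' deposited table. Mmp23, anchored by its amino end, had a fold of 1.19 at a mean of 4031 per the authors' deposited table. In the library preparation used, which does not mark strand, reads of Mmp19 cannot be told apart from those of Tmem198b over 789 shared exon bases, nor those of Mmp28 from 1700020L24Rik over 466.

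In the RefSeq annotation of GRCm38, 10 Mmp genes stand side by side on chromosome 9 with no other protein-coding gene between them: Mmp13, Mmp12, Mmp1b, Mmp3, Mmp1a, Mmp10, Mmp8, Mmp27, Mmp20 and Mmp7. They were mostly low: 5 of the 10 were at 0 in both conditions, 2 reached the minimum mean, and the highest mean was the 106 of Mmp3. Each of the 5 detected genes had a ratio above 1 or was listed at 0 in condition A. Neighbours that arose by duplication share sequence, so these are not 5 independent observations. Of the 5, Mmp10, Mmp1b and Mmp12 lay below the minimum mean, where genes of the whole table also leaned to condition B. Over all genes, 1030 were higher and 1191 lower by size at the minimum mean, against 3161 and 2336 with no minimum. Whether the direction of the 5 differs from that of other genes of similar mean was not tested.

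The AP-1 element, bound by Fos and Jun proteins, is a textbook feature of MMP promoters. It was searched as TGANTCA, which reads the same on both strands, in windows of 250 bases before to 50 after each RefSeq gene start; 36 of the 51 members had a window. A gene with several annotated starts has several windows, and it is counted as holding the element where any of them does. All 10 genes of the chromosome 9 stretch had a window, and 8 of the 10 genes held the element. Mmp7 and Mmp12 had 2 windows each, and 1 of each gene's 2 held it. Of the 26 other members with a window 0 held it, against 8.34% of 16368 genes of the table. The 10 neighbours can share the element through duplication, so they are not 10 separate cases. The share over all genes is not matched for the CG content of the windows, given below. Members without a window were not searched, among them Mmp2, Mmp9, Mmp16, Mmp17, Mmp19, Adamts4 and Adamts5. The 150 bases upstream of the start are shown for 4 detected genes of the stretch, in RefSeq sequence of GRCm38.p6, 5′ to 3′, with the element in capitals.
Mmp3 (chr9:7445672-7445821, plus strand): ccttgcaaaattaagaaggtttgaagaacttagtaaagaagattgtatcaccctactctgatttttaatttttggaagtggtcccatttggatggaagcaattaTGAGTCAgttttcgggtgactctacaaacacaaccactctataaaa
Mmp13 (chr9:7272364-7272513, plus strand): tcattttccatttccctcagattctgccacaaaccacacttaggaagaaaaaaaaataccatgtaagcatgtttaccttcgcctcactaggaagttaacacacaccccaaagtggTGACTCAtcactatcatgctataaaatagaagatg
Mmp10 (chr9:7502192-7502341, plus strand): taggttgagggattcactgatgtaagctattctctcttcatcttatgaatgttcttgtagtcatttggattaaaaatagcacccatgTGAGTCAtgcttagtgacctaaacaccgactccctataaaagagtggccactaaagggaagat
Mmp1b (chr9:7388027-7388176, minus strand): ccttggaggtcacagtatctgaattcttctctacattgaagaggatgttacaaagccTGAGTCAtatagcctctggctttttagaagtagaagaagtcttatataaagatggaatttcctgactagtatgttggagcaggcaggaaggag

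The element begins at -46 in Mmp3, -35 in Mmp13, -63 in Mmp10 and -93 in Mmp1b, counted from the RefSeq start, with -1 the base before it. The 2 undetected neighbours without the element were Mmp8 and Mmp27, and Mmp1a, Mmp7 and Mmp20 held it and were at 0 in both conditions. A match of these letters is a description of the window and shows no binding.

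Windows of the chromosome 9 genes were also poor in CG pairs, the bases that carry DNA methylation. Each gene is given by its window with the most CG pairs. The 10 genes had a median of 1.5 (0 to 7), and the 26 other members had a median of 22 (2 to 46). The 7 belongs to Mmp7, in the window without the AP-1 element; its other window held 1. Over all 16368 genes with a window the median was 15, with quartiles of 4 and 26. Adamts9 and Timp3, the 2 genes with an adjusted p under 0.1, had 25 and 24 CG pairs. Adamts14 and Adamtsl3, the 2 members lower in condition B by size, had 44 and 46, the most CG pairs among members with a window at the minimum mean. Of the 9 members higher by size, 5 had a window, with 1 to 25 CG pairs and a median of 22. Of the 19 with a log2 ratio within 1, 12 had a window, with 1 to 41 and a median of 21.5. With 2 genes in a group this is a description only, and methylation was not measured in these files. The 150 bases upstream of the start are shown for Adamts9, Timp3 and Adamts14, with CG pairs in capitals.
Adamts9 (chr6:92943535-92943684, minus strand): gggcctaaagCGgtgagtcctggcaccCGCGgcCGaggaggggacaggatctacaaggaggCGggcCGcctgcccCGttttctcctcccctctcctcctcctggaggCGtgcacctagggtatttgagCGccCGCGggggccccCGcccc
Timp3 (chr10:86300262-86300411, plus strand): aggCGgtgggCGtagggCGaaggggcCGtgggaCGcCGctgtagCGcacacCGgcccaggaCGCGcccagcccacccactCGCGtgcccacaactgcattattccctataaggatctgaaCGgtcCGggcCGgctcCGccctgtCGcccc
Adamts14 (chr10:61273420-61273569, minus strand): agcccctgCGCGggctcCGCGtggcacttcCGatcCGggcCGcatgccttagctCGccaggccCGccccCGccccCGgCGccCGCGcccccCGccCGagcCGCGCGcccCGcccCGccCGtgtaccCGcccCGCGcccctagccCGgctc

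**Figure D4:**
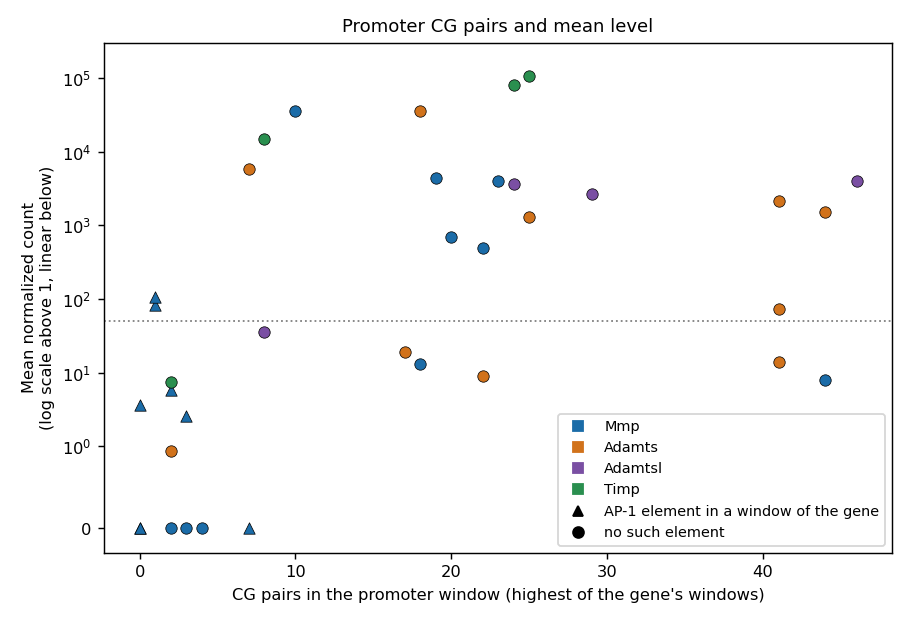
CG pairs in the gene's promoter window with the most of them against the mean normalized count over both conditions (log scale above 1, linear below) for the 36 members with a RefSeq window. Triangles mark genes with the AP-1 element in any window; all 8 have 7 or fewer CG pairs and a mean of at most 106, and Mmp1a and Mmp20 lie on top of each other at 0 and 0.

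The proteoglycanases of the ADAMTS family cut aggrecan, versican and related proteoglycans. Adamts9, a versican-cleaving enzyme of embryonic tissue and blood vessels, showed the highest ratio of all members at the minimum mean. It was 18.6-fold higher in condition B per the authors' deposited table, at a mean of 1292 and an adjusted p of 2.99e-05. Its exons overlap those of the annotated genes Gm15737 and A730049H05Rik over 424 and 166 bases, and reads of such partners cannot be told apart from its own. Adamts1 was 2.19-fold higher per the authors' deposited table, at a mean of 35420 and an adjusted p of 0.931. Adamts5, the main aggrecanase of mouse cartilage, stands next to Adamts1 on chromosome 16 and was 1.56-fold higher per the authors' deposited table, at a mean of 25212. Adamts4, the other well-known aggrecanase, was 1.55-fold lower per the authors' deposited table, at a mean of 1043. In this group of 7, 4 genes reached the minimum mean, and 2 of these, Adamts9 and Adamts1, met the size rule. Adamts15 and Adamts20 had means of 31.7 and 13.8 per the authors' deposited table, with log2 ratios of 1.33 and 1.40 and an adjusted p of 1 each. Adamts8 is listed at 0 in condition A per the authors' deposited table, at a mean of 1.05.

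The procollagen N-proteinases, which remove the amino-terminal propeptide of fibrillar procollagens, all had ratios below 1. Adamts14 was 2.85-fold lower in condition B per the authors' deposited table, at a mean of 1510, a raw p of 0.0299 and an adjusted p of 0.572. It was the member with the lowest ratio at the minimum mean. Adamts2, the main enzyme of skin procollagen, was 1.20-fold lower per the authors' deposited table, at a mean of 2142. Adamts3 was 1.27-fold lower per the authors' deposited table, at a mean of 71.9. Of these 3, 1 met the size rule.

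The other ADAMTS genes at the minimum mean had ratios above 1. Adamts10, which acts on fibrillin microfibrils, was 2.02-fold higher in condition B per the authors' deposited table, at a mean of 4116 and an adjusted p of 1. Adamts6, its close relative, had a fold of 1.44 per the authors' deposited table, at a mean of 1533. Adamts7 and Adamts12 both cut cartilage oligomeric matrix protein. Adamts12 was 1.85-fold higher per the authors' deposited table, at a mean of 5735. Adamts7 had a fold of 1.40 per the authors' deposited table, at a mean of 1369, and shares 122 exon bases with Tbc1d2b on the opposite strand. Adamts17 had a mean of 19.2 and a log2 ratio of 0.77 per the authors' deposited table. Adamts13, which cuts von Willebrand factor and is made mainly in liver, is listed at 0 in condition B per the authors' deposited table, at a mean of 0.949. Adamts19 is listed at 0 in condition A per the authors' deposited table, at a mean of 0.527.

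Among the ADAMTS-like genes, 2 met the size rule in opposite directions. Adamtsl1 was 4.005-fold higher in condition B per the authors' deposited table, at a mean of 1477, a raw p of 0.00470 and an adjusted p of 0.165. Adamtsl3 was 2.36-fold lower per the authors' deposited table, at a mean of 4005, a raw p of 0.0543 and an adjusted p of 0.839. Adamtsl5 was 1.78-fold higher per the authors' deposited table, at a mean of 2667. Adamtsl4, which binds fibrillin 1 and is needed for the fibres that hold the lens, had a fold of 1.04 per the authors' deposited table, at a mean of 3652. Adamtsl2, which binds fibrillin 1 and latent TGF-beta binding protein 1, had a mean of 36.2 and a log2 ratio of 2.15 per the authors' deposited table, with an adjusted p of 1.

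Of the 15 members above 0 but below the minimum mean, 4 are listed at 0 in condition A and 1 at 0 in condition B. The other 10 had values in both conditions, 6 with a ratio above 1 and 4 below 1. Genes of the whole table below the minimum mean leaned to condition B as well. By size, 1030 of all genes were higher and 1191 lower at the minimum mean, against 3161 and 2336 with no minimum. Whether the 15 differ from other genes of similar mean was not tested. The 4 below 1, Adamts16, Adamts18, Mmp24 and Timp4, had log2 ratios from -1.66 to -0.17 per the authors' deposited table at means of 7.38 to 8.96. Each of the 15 had an adjusted p of 1.

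Genes that control metalloprotease activity were described from a list of 17, of which 14 reached the minimum mean. By size, 3 were higher and 1 lower in condition B, and their log2 ratios had a median of 0.28. For this list and those below, the shares over all genes were 8.31% higher and 9.6% lower by size. In these lists too, a gene of low mean can reach the minimum through the condition where it is higher. Pcsk5, a proprotein convertase, was 8.99-fold higher per the authors' deposited table, with an adjusted p of 0.00672. Serpinb2, an inhibitor of plasminogen activators, had a log2 ratio of 5.32 per the authors' deposited table, at a mean of 77.8 and an adjusted p of 0.216. Reck, a membrane-anchored inhibitor of several MMPs, was 2.01-fold higher, and Sdc4 (syndecan 4) 2.03-fold lower, both with an adjusted p of 1 per the authors' deposited table.

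ADAM genes encode membrane-bound relatives, many but not all of which shed surface proteins. Of 10 ADAM genes at the minimum mean, 3 were higher in condition B by size and 0 were lower, and the median was 0.72 on the log2 scale. Adam33 was 76.0-fold higher per the authors' deposited table, at a mean of 256 and an adjusted p of 0.000211. Adam23, which lacks protease activity, was 11.6-fold higher per the authors' deposited table, with an adjusted p of 8.80e-05. Adam15 and Adam22 had log2 ratios of 1.07 and 0.85 per the authors' deposited table, with an adjusted p of 1 each. Among 13 other matrix proteases, 4 were higher and 1 lower by size. Fap (fibroblast activation protein) was 18.4-fold higher and Ctsk (cathepsin K, a collagen-degrading lysosomal enzyme) 4.71-fold higher per the authors' deposited table, at an adjusted p of 0.0174 for Fap and 0.0837 for Ctsk. Mme (neprilysin), a surface peptidase, was 9.91-fold lower per the authors' deposited table, with an adjusted p of 0.000648. Cpxm2 had a log2 ratio of 3.25 per the authors' deposited table and an adjusted p of 1.

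Substrates of these enzymes did not follow a common direction. Of the aggrecanase substrates, Acan (aggrecan) was 8.46-fold lower in condition B per the authors' deposited table, at a mean of 125 and an adjusted p of 0.543. Vcan (versican), at a mean of 27371, had a log2 ratio of -0.31 per the authors' deposited table. Of 6 procollagens cut by the N-proteinases, 1 met the size rule, Col2a1 at a log2 ratio of -4.87 and an adjusted p of 9.30e-09 per the authors' deposited table. Col3a1, Col5a1 and Col1a1 had log2 ratios of 0.44, 0.41 and -0.08 per the authors' deposited table. Of 9 genes of fibrillin microfibrils and their partners, 2 were higher and 3 lower by size. Mfap5, a microfibril glycoprotein, was 6.22-fold higher per the authors' deposited table, with an adjusted p of 0.0187. Ltbp1, Fbn2 and Ltbp4 had log2 ratios of -1.65, -1.41 and -1.35 per the authors' deposited table, and their adjusted p-values were 0.248, 0.490 and 0.621.

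Of 12 transcription factor genes known to act on MMP promoters, 2 were higher and 1 lower in condition B by size. Fosb was 8.17-fold and Fos 3.997-fold higher per the authors' deposited table, at an adjusted p of 0.000885 for Fosb and 0.0827 for Fos; both encode AP-1 subunits. Ets2 and Fosl2 had log2 ratios of -1.83 and -0.71 per the authors' deposited table, at an adjusted p of 0.197 for Ets2 and 1 for Fosl2. Whether these factors bear on the Mmp genes was not tested.

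Markers of fibroblasts had means from 395 (Lum) to 550534 (Fn1) per the authors' deposited table. All 10 reached the minimum mean, and 4 (Dcn, Lum, Thy1 and Pdgfra) were higher in condition B by size, with log2 ratios of 5.66, 3.29, 2.88 and 2.54 per the authors' deposited table and an adjusted p under 0.1 each. Markers of other cell types differed in direction. Of 6 endothelial markers, 3 reached the minimum mean, Emcn, Kdr and Tek, all higher in condition B by size, with log2 ratios of 6.06, 2.78 and 1.21 per the authors' deposited table. The defining endothelial genes Cdh5, Pecam1 and Tie1 had means of 8.43, 9.80 and 0.474 per the authors' deposited table. Of 10 macrophage and neutrophil markers in the table, 3 reached the minimum mean, Lyz2, Csf1r and Cd68, with log2 ratios of 3.84, 1.05 and 0.18 per the authors' deposited table and adjusted p-values of 0.420, 1 and 1. Emcn and Lyz2 had means of 96.3 and 94.7 per the authors' deposited table, and could reach the minimum through condition B alone, where they were higher. Emr1, Elane, Mpo, S100a8 and S100a9 are listed at 0 in both conditions per the authors' deposited table. Of 8 chondrocyte markers at the minimum mean, 6 were lower and 1 higher in condition B by size, and Col2a1 and Comp of the 6 had an adjusted p under 0.1. Besides Col2a1 and Acan, given above, Comp and Matn3 had log2 ratios of -3.11 and -2.09 per the authors' deposited table, at an adjusted p of 0.0220 for Comp and 1 for Matn3. Of 7 epithelial markers 2 reached the minimum mean, Krt18 and Krt19, with log2 ratios of -2.29 and -0.02 per the authors' deposited table, and of 8 osteoblast markers 2 did, Spp1 and Runx2, at -1.04 and -0.42 per the authors' deposited table. In a culture measured in bulk, fewer cells of a type and less RNA per cell cannot be told apart. The part of other cell types in the Mmp and Adamts ratios was not tested.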

How the data were processed

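RNA of 1 library per genotype was sequenced, made per the labels' protocols from TRIzol extracts of frozen pellets by the TruSeq RNA v2 protocol, in which strand is not marked. TopHat2 2.0, DESeq and build mm9 are named in the submitters' processing notes; those for counter, annotation and dispersion were not given in the sources used here. As signal, the authors deposited the mean, across the 2 conditions, of counts divided by size factors. The deposited ratio (fold) is condition B over condition A, and the deposited log2 ratio is its base-2 logarithm with no pseudocount. The deposited p-values are the authors' own, adjusted by Benjamini-Hochberg over 17339 genes. Their 2 columns of values per condition match no sample label and were not used, so members are described by mean and ratio. A comparison of knock-out with wild type had been planned; condition B was compared with condition A instead.

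Every member at a mean of at least 50, and lower ones at a mean of at least 10 or at 0 in 1 condition, was named with its values; of each other list, the 4 largest ratios and every gene with an adjusted p under 0.1. Mmp12, Mmp24, Adamts16, Adamts18 and Timp4 were named outside this rule after their values were seen. Among the markers, Ptprc, Cdh5, Pecam1, Tie1, Emr1, Elane, Mpo, S100a8 and S100a9 were also named outside it. The members and lists were chosen with earlier results of these data known. Lengths are from GENCODE M21, for 51 of 51 members, and promoters from RefSeq (GRCm38.p6), for 36; that build differs from the authors', whose table holds no coordinates. The planned protein motif search was not run. Alternatives were minimum means of 10, 200 and none, a log2 size of 2, a 1.5-fold size, adjusted p under 0.05, raw p under 0.05, centring on the median or on a trimmed mean (30% of ratios, 5% of means at each end) and, added after the data were seen, the median transcript length. Python 3.11.15, numpy 2.4.6 and pandas 2.3.3 were used, and the size rule and centring were tested on simulated data.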

Additional observations from a re-analysis of the deposited data

How the results depend on the processing

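The 9 members higher and 2 lower in condition B by size were also 9 and 2 when ratios were centred on the median of all genes or on the trimmed mean. These centrings shifted ratios by 0.04 on the log2 scale and turned the direction of 0 of the 30 members at the minimum mean. Minimum means of 10 and 200 gave 13 and 7 higher, and 2 lower in each case. With no minimum mean the counts were 18 higher and 4 lower, with a log2 ratio of at least 2 they were 5 and 0, and with a ratio of at least 1.5-fold they were 15 and 5. Counts over all genes moved too: beside 1030 higher and 1191 lower at the settings of the report, they were 1521 and 1480 at a minimum mean of 10, 695 and 922 at 200, 3161 and 2336 with none, 476 and 366 at a log2 ratio of 2, and 1727 and 2160 at 1.5-fold. All genes thus turned to more higher than lower with a minimum mean of 10, with none and at a log2 ratio of 2. The median log2 ratio of the members, 0.59, was 0.81 with a minimum mean of 10 and 0.71 with none, and lay above 0 in each setting run. The 2 members under the authors' adjusted p of 0.1 were 1 (Adamts9) at 0.05, where Timp3 was lost, and 6 at a raw p under 0.05. With the median transcript length the Timp share of the level per kilobase was 59.2%. Counts per library were not used, so no counting interval is given, and ratios of members with a mean near 100 or lower, such as Mmp9 and Mmp3, rest on low counts. With 1 library per genotype no replicate could be left out.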
